A study of Mus musculus with 2 samples.

Results

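The 8 genes described here encode parts of the complement system: the 3 chains of C1q (C1qa, C1qb and C1qc), the central component C3, the alternative pathway proteins factor B (Cfb) and properdin (Cfp), and the receptors of the C3a and C5a fragments (C3ar1 and C5ar1). They were chosen by symbol, 8 of the 32285 genes in the count matrices, and all 8 were detected. The samples were 2 droplet single-cell RNA libraries of living cells that carried CD45, the surface protein of white blood cells, sorted from tumours of the mouse melanoma line B16-F10 at day 14 after injection. In 1 library the implanted line was DGAT1-knockout (KO), lacking the enzyme that adds the last fatty acid to triglycerides. In the other it was WT. The knockout is a property of the injected line, so the immune cells measured here came from the hosts and are not labelled as knockout. Each group had 3 tumours and 1 library, and the files do not tie cells to tumours. No test between the conditions was therefore possible, every interval below is a 95% exact interval that covers counting error only, and a difference between the libraries has no replicate check.

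Complement is a cascade of proteins that marks cells and debris for uptake and for lysis. C1q is built from its 3 chains, binds antibodies and dying cells, and starts the classical pathway. C3 is cleaved in every pathway, factor B and properdin form and stabilise the alternative pathway convertase, and C3ar1 and C5ar1 let myeloid cells respond to the released fragments. Tissue macrophages are a known source of C1q outside the liver, which makes most of the other circulating components.

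The C1q genes form a compact cluster. On GENCODE M21 (mm10), C1qb lies at chr4:136880129-136886187, C1qc at chr4:136889804-136893065 and C1qa at chr4:136895917-136898803, all on the minus strand, with 3616 bases between C1qb and C1qc and 2851 between C1qc and C1qa. C3 lies at chr17:57203970-57228136, Cfb at chr17:34856374-34862518, C3ar1 at chr6:122847138-122856161, C5ar1 at chr7:16246743-16259540 and Cfp at chrX:20925454-20931555, also on the minus strand. All are protein-coding. RefSeq promoter windows (GRCm38.p6, 250 bases before to 50 after the start site) were matched for 6 of the 8 genes. C1qb and C1qc are shown because their levels differed together between the libraries, and C3 because it differed in the other direction. Each is printed 5′ to 3′ on the minus strand, from chr4:136886151-136886450, chr4:136892865-136893164 and chr17:57228087-57228386.
C1qb: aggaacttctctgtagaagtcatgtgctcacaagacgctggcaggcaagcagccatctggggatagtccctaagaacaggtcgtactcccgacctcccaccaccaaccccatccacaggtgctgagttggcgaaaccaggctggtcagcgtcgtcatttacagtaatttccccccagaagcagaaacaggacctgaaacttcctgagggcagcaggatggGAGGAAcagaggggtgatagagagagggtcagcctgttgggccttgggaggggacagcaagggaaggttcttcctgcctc
C1qc: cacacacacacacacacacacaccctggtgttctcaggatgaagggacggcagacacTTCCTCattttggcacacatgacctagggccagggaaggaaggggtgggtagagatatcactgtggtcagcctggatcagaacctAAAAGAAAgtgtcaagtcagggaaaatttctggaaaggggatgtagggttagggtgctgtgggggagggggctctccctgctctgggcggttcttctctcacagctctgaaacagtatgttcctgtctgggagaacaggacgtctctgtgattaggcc
C3: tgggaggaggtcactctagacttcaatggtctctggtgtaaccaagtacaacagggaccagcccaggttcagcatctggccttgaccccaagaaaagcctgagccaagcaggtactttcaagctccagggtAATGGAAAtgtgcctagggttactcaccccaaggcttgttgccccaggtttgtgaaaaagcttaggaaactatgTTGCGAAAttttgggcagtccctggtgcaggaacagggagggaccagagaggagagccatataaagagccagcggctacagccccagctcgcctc
Capitals mark matches to 3 motifs searched on both strands: GAGGAA (the core bound by PU.1, a macrophage transcription factor), AANNGAAA (the core bound by interferon regulatory factors) and TTGCNNAA (a C/EBP core). The windows of C1qb and C1qc each held 1 GAGGAA match, in C1qc on the other strand. C1qc and C3 each held 1 AANNGAAA match, and C3 held 1 TTGCNNAA match. No matches overlapped. Of all 32851 promoter windows of this length, 28.3% held GAGGAA, 23.9% AANNGAAA and 10.8% TTGCNNAA, so each match is common and only describes these letters. The Cfp window held 2 GAGGAA matches, that of C3ar1 held 1 AANNGAAA match and that of C5ar1 held none of the 3.

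After filtering, the knockout library kept 10934 cells and the WT library 9033, with a median of 10820 and 14225 UMIs (unique molecules counted) per cell. Cells were assigned to classes by marker genes that included no complement member. Of the 10785 knockout and 8536 WT cells that were neither melanoma-like nor fibroblast-like, Ptprc (CD45) was detected in 96.4% and 93.6%. Macrophage-like cells made up 14.3% (13.7 to 14.98) of these in the knockout library, 1543 cells, and 32.8% (31.8 to 33.8) in the WT library, 2800 cells. Monocyte-like cells made up 16.8% (1812 cells) and 8.76% (748 cells). Ungated cells were 20.4% and 17.8%. Melanoma-like cells that had passed the sort (146 and 482) held Dgat1 at 18.5 (15.6 to 21.9) CPM (a gene's UMIs per 1000000 UMIs of the class) in the knockout library and at 28.5 (26.6 to 30.5) CPM in the WT one. Where the edit lies is not given, so this level does not check the knockout. Wherever a pair of values is given below, the knockout library comes first and the WT library second, and ratios are knockout over WT. RNA free in the suspension also enters droplets, and its complement content differed: in barcodes with at most 100 UMIs the C1q genes summed to 1726 CPM (knockout) and 4809 CPM (WT).

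The C1q genes were the most unequal members between the libraries as a whole. Over all CD45+ cells, C1qa stood at 489 CPM (knockout) and 1389 CPM (WT), C1qb at 596 and 1683 CPM, and C1qc at 363 and 1096 CPM. Their sum was 1448 against 4169 CPM, a ratio of 0.347 (0.346 to 0.349). The other members that stood lower in the knockout library were C3ar1 (135 and 226 CPM, ratio 0.597), C5ar1 (69.9 and 110 CPM, ratio 0.636), Cfb (81.1 and 114 CPM, ratio 0.711) and Cfp (103 and 137 CPM, ratio 0.750). C3 was the exception, at 68.6 and 54.3 CPM, a ratio of 1.26 (1.23 to 1.30). A fold of 1.5 downward was reached by 5 of the 8 members and a fold of 1.5 upward by 0. Among the 15383 genes with at least 50 UMIs, these directions held 7.16% and 8.12%.

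Both the class shares and the levels within classes differed between the libraries. In the WT library 88.3% of all C1q UMIs lay in macrophage-like cells, which held 40.4% of all UMIs, and in the knockout library 75.1% did, with 16.6% of all UMIs. Levels and shares of 12 classes, the mixed ungated cells among them, were then exchanged between the libraries. With the WT levels and the knockout library's shares, the C1q sum over all cells came to 2221 CPM, a ratio of 0.533 to the WT value. With the knockout levels and the WT shares it came to 2886 CPM, a ratio of 0.692. Exchanging only the shares gave 0.666 for C3ar1, 0.728 for C5ar1, 0.720 for Cfb, 0.774 for Cfp and 1.03 for C3. Exchanging only the levels gave 0.958, 0.980, 0.998, 0.946 and 1.31 for the same genes. With classes weighted alike in both libraries, each by the mean of its UMI shares in them, the log2 ratio of the C1q sum over all CD45+ cells moved from -1.53 to -0.56. That of C3ar1 moved to -0.10.

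**Figure D1:**
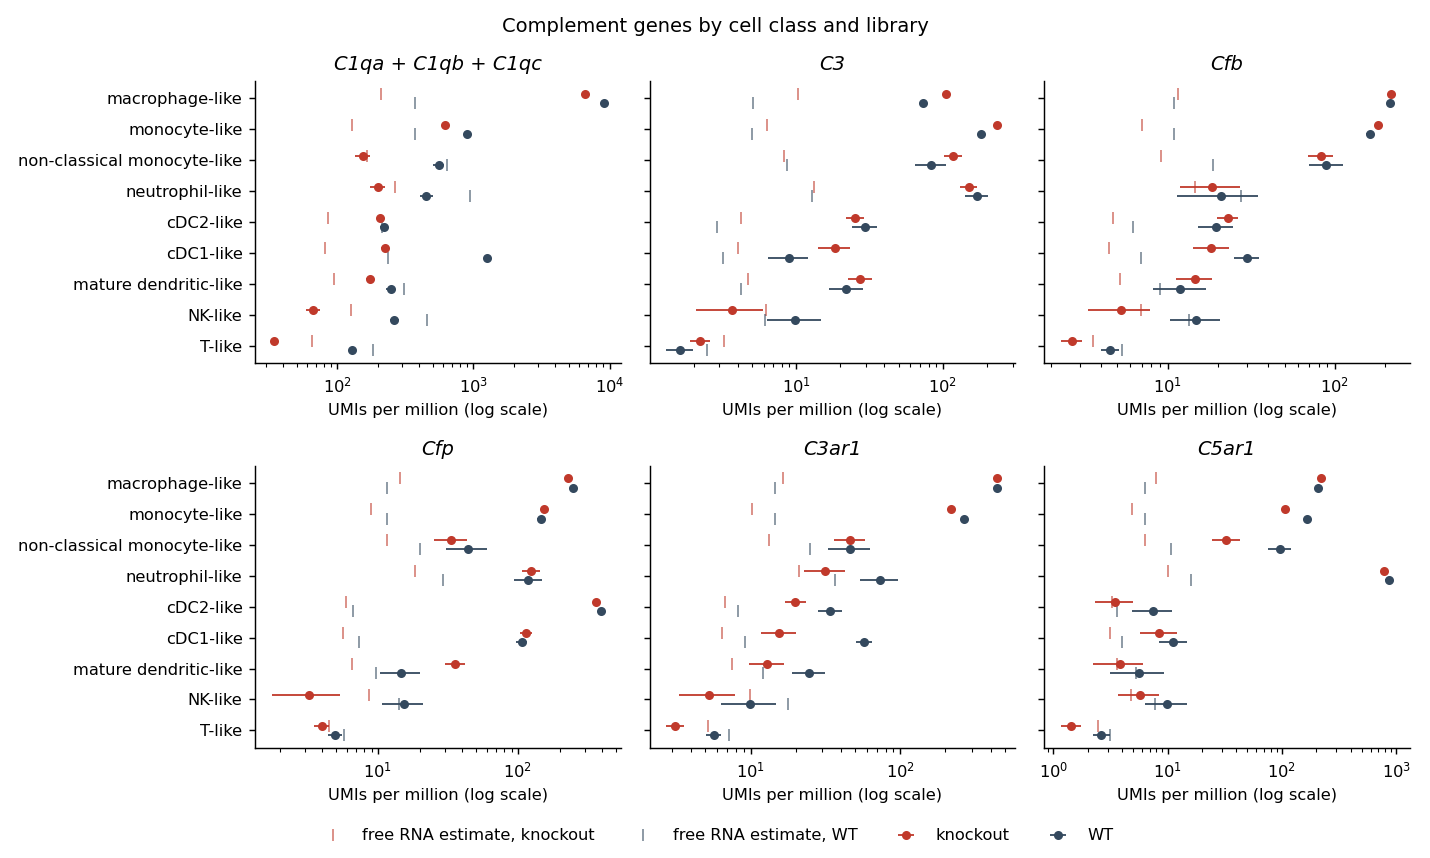
Level of the C1q genes (summed) and of the other 5 members in 9 immune classes, in CPM on a log axis, for the knockout and WT libraries. Circles show the level with its 95% counting interval. Short vertical ticks show an estimate of free RNA from melanoma genes, which passes the measured C1q level in several classes, among them T-like and NK-like cells. Macrophage-like cells lead for the C1q genes at 6563 and 9115 CPM, and neutrophil-like cells for C5ar1 at 780 and 864 CPM.

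Within macrophage-like cells, all 3 C1q chains were lower in the knockout library. C1qa stood at 2311 CPM against 3081 CPM (ratio 0.750), C1qb at 2566 against 3633 CPM (ratio 0.706) and C1qc at 1687 against 2401 CPM (ratio 0.702). Summed, C1q reached 6563 (6533 to 6594) CPM (knockout) and 9115 (9092 to 9138) CPM (WT), a ratio of 0.720 (0.716 to 0.724). None of the 8 members passed 1.5-fold in this class, where 10.4% of 12513 genes did. The median log2 ratio of the members was -0.05, beside 0.01 for all genes.

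The difference ran through the distribution of cells. The median macrophage-like cell held C1q at 4552 CPM (knockout) and 7590 CPM (WT), with quartiles of 1019 and 8212 CPM against 3558 and 11379 CPM. Cells with no C1q UMI at all made up 10.9% of macrophage-like cells with knockout and 1.89% with WT tumours. At an equal depth of 2000 UMIs per cell, 81.8% and 92.1% of macrophage-like cells held a C1q UMI (89.1% and 98.1% without thinning). In T-like cells, which should lack these genes, the thinned shares were 8.09% and 21.0% and the unthinned ones 43.6% and 79.6%. Thinning left out 30 and 44 macrophage-like and 33 and 49 T-like cells. Median depth was 14278 and 20282 UMIs in macrophage-like cells and 16178 and 19057 UMIs in T-like cells. Free RNA, estimated from melanoma genes, accounted for 3.16% and 4.10% of the C1q level of macrophage-like cells, and the ratio after its subtraction was 0.727.

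The macrophage-like class is a range of a marker score rather than a discrete type, with 120 knockout and 169 WT cells within 0.02 of its cut. Its knockout cells carried more monocyte marker RNA, a median of 1064 CPM over the monocyte list against 395 CPM in the WT library, and lower depth, whose part in the ratios was not tested. Macrophage-like, monocyte-like and intermediate ungated cells were therefore lined up by macrophage score minus monocyte score and divided into 7 bins. The C1q sum climbed along this axis in both libraries, from 275 CPM (knockout) and 373 CPM (WT) in the most monocyte-like bin to 8441 and 10330 CPM in the most macrophage-like bin. As measured, the C1q sum was lower in the knockout library in all 7 bins, each with an interval below 1. The bins were not corrected for free RNA. In monocyte-like cells the melanoma-gene estimate of free C1q RNA was 128 CPM (knockout) and 373 CPM (WT). That is about the whole WT level of the first bin, so the direction at the monocyte-like end is not settled. The ratio ranged from 0.658 to 0.888 and had no steady course along the axis.

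**Figure D2:**
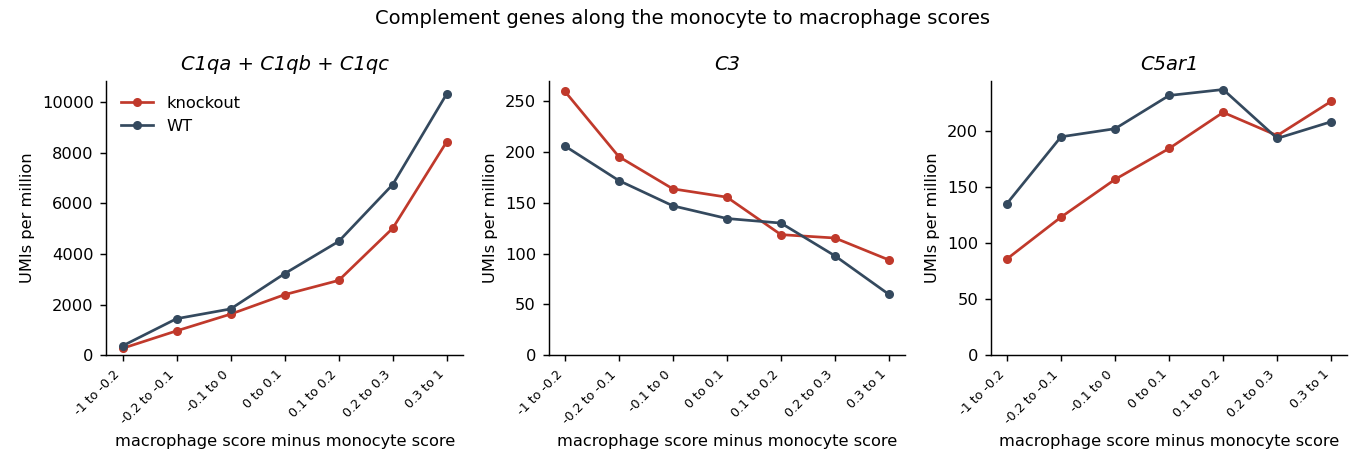
CPM of the C1q genes (summed), C3 and C5ar1 in 7 bins of the macrophage score minus the monocyte score, for the knockout and WT libraries, on linear axes. The WT line lies above the knockout line for C1q in every bin, whereas C3 lies higher in the knockout library in 6 of 7 bins and C5ar1 lies lower in the first 5. Levels are not corrected for free RNA, which weighs most on C1q at the monocyte-like end.

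Parts of the macrophage-like class showed the same direction. Cells with at least 500 CPM of Arg1, the arginine-degrading enzyme arginase 1, made up 43.0% of the class in the knockout library (663 cells) and 30.0% in the WT library (839 cells), with 62 and 105 cells between 400 and 600 CPM. Their C1q sum was 4902 and 6481 CPM (ratio 0.756). In the remaining cells it was 7593 and 9924 CPM (ratio 0.765). Cycling cells, with at least 2 UMIs of the proliferation gene Mki67 (243 and 706 cells), held 8617 and 10475 CPM (ratio 0.823). The 21 and 53 cells with Lyve1, a marker of resident perivascular macrophages, came closest to each other at 8606 and 9141 CPM (ratio 0.942, 0.912 to 0.972).

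The 3 chains moved together from cell to cell. Among macrophage-like cells, Pearson's r between chains ran from 0.842 to 0.898 over both libraries. The points share a cell's depth, and these values are a description. Their proportions were not fixed, however. In macrophage-like cells C1qa, C1qb and C1qc took 35.2%, 39.1% and 25.7% of the C1q UMIs in the knockout library, and 33.8%, 39.9% and 26.3% in the WT library. In monocyte-like cells C1qb took 52.1% (knockout) and 53.3% (WT) and C1qa only 25.9% and 24.6%. Along the score axis the C1qb share went from 52.2% (50.5 to 54.0) to 37.4% (37.1 to 37.6) in the knockout library and from 55.2% (52.9 to 57.5) to 38.8% (38.7 to 38.9) in the WT library. The C1qa share climbed over the same bins from 26.5% to 36.2% and from 22.5% to 34.5%. The gradient between bins was larger than the difference between the libraries in any bin.

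**Figure D3:**
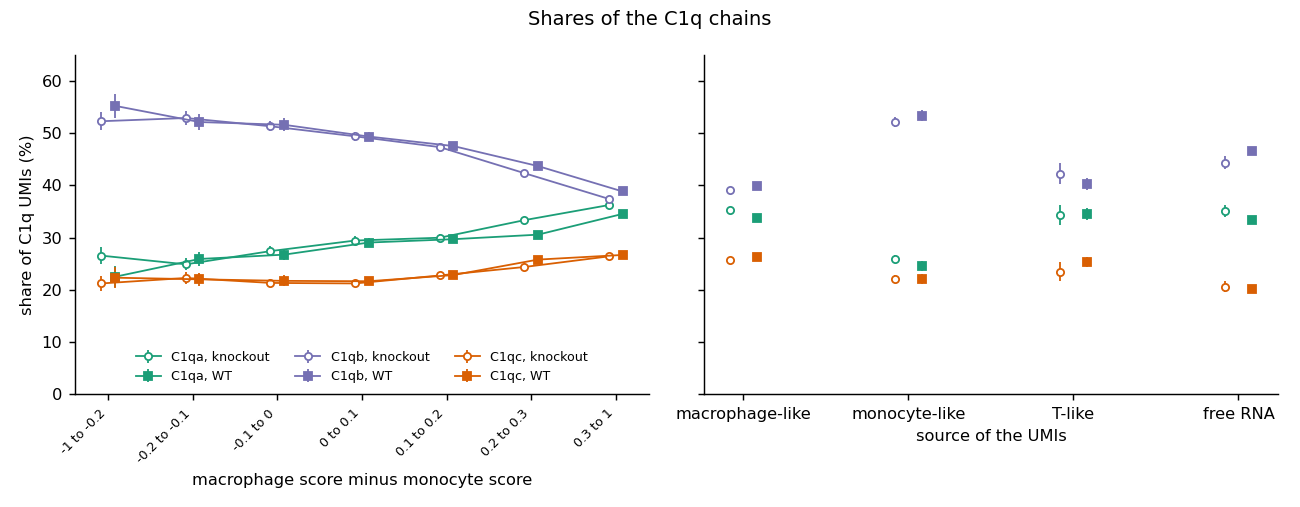
Share of C1q UMIs, in percent with 95% counting intervals, taken by C1qa, C1qb and C1qc along the macrophage minus monocyte score (left) and in 3 classes and free RNA (right). Open circles are the knockout library and filled squares the WT library. C1qb takes over 50% at the monocyte-like end and under 40% at the macrophage-like end in both.

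Outside macrophage-like cells most C1q UMIs lay in ungated cells, which stood at 1756 CPM (knockout) and 3456 CPM (WT), a ratio of 0.508 (0.502 to 0.515), with free RNA at 15.6% or less of the level. Ungated cells are a mixture whose make-up differed between the libraries. Their median macrophage marker RNA was 1081 and 1659 CPM and their median monocyte marker RNA 1461 and 851 CPM. The ratio of 0.508 therefore compares unlike mixtures. Monocyte-like cells held 613 CPM (knockout) and 900 CPM (WT), a ratio of 0.681 (0.662 to 0.701). These levels lay above the 75th percentile of the cells: the median monocyte-like cell held 65.3 and 176 CPM, the 75th percentile was 243 and 486 CPM and the 90th 1318 and 2371 CPM. Of the class, 150 knockout and 68 WT cells lay within 0.02 of the cut. By the melanoma-gene estimate, free RNA amounted to 20.9% of the knockout and 41.5% of the WT level. The ratio became 0.921 once it was subtracted. A constant amount per cell, an estimate added after the data were seen, gave shares of 13.4% and 26.1% and a ratio of 0.798. For C1qa alone the melanoma-gene subtraction turned the ratio from 0.716 to 1.18, whereas the constant amount gave 0.907. The T-like level of 34.3 and 128 CPM was below the melanoma-gene estimate of free RNA in both libraries, so its ratio of 0.269 gives no measure of expression. The C1qa and C1qb shares in T-like cells, for example 42.2% and 40.2% C1qb, lay nearer to those of macrophage-like cells and free RNA (44.3% and 46.5% C1qb) than to those of monocyte-like cells. The C1qc share, 23.4% and 25.3%, lay between those of monocyte-like cells (22.1% and 22.1%) and macrophage-like cells (25.7% and 26.3%). It was above that of free RNA (20.6% and 20.1%) in both libraries. In cDC1-like cells (conventional dendritic cells specialised for cross-presentation) the level was 223 and 1264 CPM, and 10 cells held 74.6% (knockout) and 61.3% (WT) of those UMIs. Free RNA by the melanoma-gene estimate amounted to 36.2% (knockout) and 18.7% (WT) of that level. Without the 10 cells with most UMIs of each gene, the log2 ratio moved from -2.46 to -3.44 for C1qa, from -2.38 to -2.97 for C1qb and from -2.73 to -3.38 for C1qc. The low levels left without those cells were not corrected for free RNA, so these values do not strengthen the difference.

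C3, the substrate of all pathways, had another distribution and another direction. Of the 10 compared classes it was highest in monocyte-like cells, at 233 CPM (knockout) and 183 CPM (WT) (ratio 1.27, 1.20 to 1.35). Neutrophil-like cells held 150 and 170 CPM, with a ratio of 0.880 (0.697 to 1.11) whose interval includes 1. Non-classical monocyte-like cells held 118 and 82.9 CPM (ratio 1.42, 1.07 to 1.89). Macrophage-like cells held 105 (101 to 109) and 73.1 (71.0 to 75.2) CPM, a ratio of 1.44 (1.37 to 1.51). Summed over its cells, the macrophage-like class thus held a higher C3 level and a lower C1q level in the knockout library.

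The C3 ratio ranged widely among parts of the macrophage-like class. With at least 500 CPM of Arg1 the level was 96.8 CPM (knockout) and 96.0 CPM (WT) (ratio 1.01, 0.929 to 1.09). Below that it was 110 and 66.0 CPM (ratio 1.67, 1.58 to 1.77). In cycling cells it was 80.3 and 40.2 CPM (ratio 2.00, 1.79 to 2.22). Along the score axis C3 declined from 260 and 206 CPM at the monocyte-like end to 93.8 and 59.9 CPM at the macrophage-like end, and the ratio was highest, 1.57 (1.47 to 1.67), in that last bin. The difference between these ratios was not tested. Free RNA held C3 at 85.8 CPM (knockout) and 64.9 CPM (WT), and amounted to at most 9.81% of the macrophage-like level, with a ratio of 1.39 after subtraction.

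Factor B and properdin differed little inside the main classes. Cfb, the protease of the alternative pathway convertase, stood at 216 and 212 CPM in macrophage-like cells (ratio 1.02, 0.9896 to 1.05) and at 182 and 161 CPM in monocyte-like cells (ratio 1.13, 1.06 to 1.20). The macrophage value covered 2 opposite parts: 176 and 209 CPM (ratio 0.843) in cells with at least 500 CPM of Arg1, and 241 and 213 CPM (ratio 1.13) in the rest. In monocyte-like cells the direction turned to a log2 ratio of -0.05 when only barcodes above the UMI threshold were used, which left 131 WT cells.

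Cfp, which stabilises that convertase, was highest in cDC2-like cells, the conventional dendritic cells that prime CD4 T cells, at 364 and 393 CPM (ratio 0.926, 0.869 to 0.987). Macrophage-like cells held 227 and 246 CPM (ratio 0.925, 0.898 to 0.953), monocyte-like cells 153 and 145 CPM (ratio 1.06, 0.989 to 1.13) and cDC1-like cells 114 and 107 CPM (ratio 1.07, 0.934 to 1.22). Mature dendritic-like cells were the exception, at 35.5 and 14.6 CPM (ratio 2.44, 1.71 to 3.56). There 10 cells held 51.6% and 66.7% of the 157 and 39 UMIs. Free RNA by the melanoma-gene estimate made up 18.4% and 66.2% of the level. Its subtraction changed the log2 ratio from 1.29 to 2.56, and a constant amount per cell gave 1.85, so the size of this ratio depends on the estimate. Plasmacytoid dendritic-like cells, too few in the WT library for a ratio, held 84.9 and 90.1 CPM.

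The receptors differed by class. C3ar1, the receptor of C3a, was highest in macrophage-like cells and level there, at 444 (436 to 452) and 443 (438 to 448) CPM (ratio 1.003, 0.981 to 1.02). In monocyte-like cells it stood at 217 and 267 CPM (ratio 0.814, 0.774 to 0.856). Its ratio was lowest at the monocyte-like end of the score axis, 0.732 in the first bin, and 0.996 in the last. In both Arg1 parts of the macrophage-like class C3ar1 was slightly lower in the knockout library, with ratios of 0.950 and 0.945. The pooled ratio of 1.003 was computed over unequal amounts of these parts.

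C5ar1, the receptor of C5a, was highest in neutrophil-like cells, at 780 (734 to 829) and 864 (795 to 937) CPM (ratio 0.903, 0.816 to 1.001). Macrophage-like cells held 219 and 209 CPM (ratio 1.05, 1.02 to 1.08), and with the Arg1 parts weighted alike the log2 ratio was -0.0033. Monocyte-like cells held 107 and 165 CPM, a ratio of 0.649 (0.607 to 0.695). Of the 8 members, 2 (C1qb and C5ar1) stood at least 1.5-fold lower in the knockout library in monocyte-like cells, where 2.37% of 10288 genes did. Of the 5 members with a free RNA share under 25%, it was C5ar1 alone. None stood at least 1.5-fold higher, beside 5.73% of genes. At equal depth 15.9% and 23.3% of monocyte-like cells held a C5ar1 UMI (40.0% and 50.9% without thinning), beside 0.231% and 0.691% of T-like cells, at median depths of 9667 and 11268 UMIs in the monocyte-like class. The C5ar1 ratio climbed from 0.635 and 0.632 in the first 2 bins of the score axis to 1.01 and 1.09 in the last 2. In non-classical monocyte-like cells C5ar1 stood at 32.7 and 96.0 CPM (ratio 0.341, 0.236 to 0.489), and without the 10 cells with most C5ar1 UMIs the log2 ratio moved from -1.55 to -0.93.

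**Figure D4:**
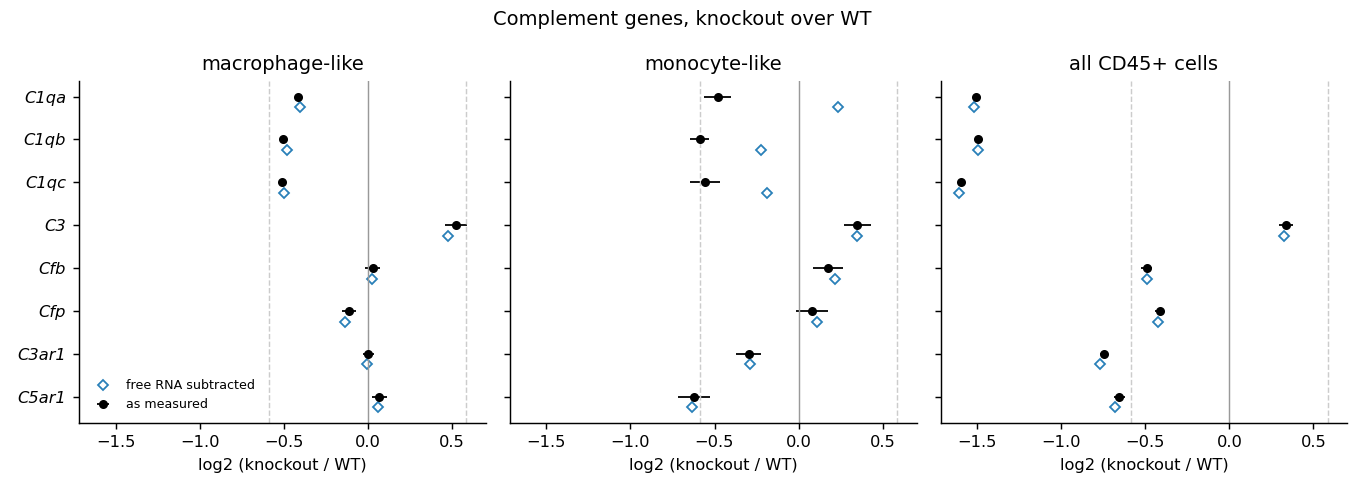
Log2 of the knockout over WT level for the 8 members in macrophage-like cells, monocyte-like cells and all CD45+ cells. Black points are as measured with 95% counting intervals, open diamonds follow subtraction of free RNA, and dashed lines mark 1.5-fold. In macrophage-like cells the C1q chains lie left of 0, C3 right of it and the others near it, while over all CD45+ cells every member but C3 lies left of 0.

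In the rarer myeloid classes 6 to 8 of the members had at least 50 UMIs. In cDC1-like cells, 5 of 8 members were at least 1.5-fold lower in the knockout library and 1 higher, where 5.43% of 8409 genes were lower and 5.82% higher. Those lower were the C1q chains, C3ar1 (15.5 and 57.0 CPM, ratio 0.272) and Cfb (18.3 and 29.7 CPM, ratio 0.617). With clusters in place of gates the log2 ratio of C3ar1 moved from -1.88 to -0.76. The one higher was C3 (18.3 and 8.90 CPM, ratio 2.06, 1.37 to 3.11), whose log2 ratio moved from 1.04 to 2.13 under a stricter gate and to 1.86 with clusters. This C3 ratio rests on 65 and 42 UMIs, of which 10 cells held 72.3% and 76.2%. Free RNA by the melanoma-gene estimate made up 22.0% and 35.9% of the C3 level. For Cfb 10 cells held 80.0% and 67.9% of the UMIs, and its log2 ratio of -0.70 moved to -1.44 without the 10 cells with most UMIs and turned to 0.20 with each cell weighted alike. In cDC2-like cells C3ar1 (19.95 and 34.1 CPM, ratio 0.585) had a log2 ratio of 0.07 once the 10 cells with most UMIs were left out.

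Among 41 other complement genes, 16 had at least 50 UMIs in macrophage-like cells. Of these, 1 was at least 1.5-fold higher in the knockout library and 4 lower, beside 5.45% and 4.97% of all genes. The one higher was C5ar2, the second C5a receptor, at 11.3 and 7.25 CPM (ratio 1.56, 1.35 to 1.81). Those lower were the ficolin Fcna, a lectin pathway recognition protein (5.03 and 10.9 CPM, ratio 0.464), Cd59a, an inhibitor of the membrane attack complex (2.44 and 4.57 CPM, ratio 0.535), C2, the classical pathway protease (2.74 and 4.20 CPM, ratio 0.653, free RNA 39.6% of the WT level), and the C3b receptor Vsig4 (9 and 53 UMIs, ratio 0.416). C4b, which follows C1q in the classical pathway, stood at 32.9 and 45.6 CPM (ratio 0.721, 0.668 to 0.778). Integrin subunits of complement receptor 3, Itgam (420 and 429 CPM, ratio 0.978) and Itgb2 (273 and 266 CPM, ratio 1.03), were near equal, whereas Itgax of complement receptor 4 was at 45.6 and 31.8 CPM (ratio 1.43).

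In monocyte-like cells 10 of the 41 genes had enough counts, with 1 lower and 0 higher, beside 2.37% and 5.73% of all genes. That gene was Cd93, once described as a C1q receptor, at 48.2 and 74.6 CPM (ratio 0.646, 0.584 to 0.714). Itgam had its highest level here, at 545 and 520.5 CPM. In NK-like cells 1 of 6 was higher, beside 5.55% of 8233 genes: Itgam, at 164 and 103 CPM (ratio 1.60). In cDC1-like cells 1 of 7 was higher and 3 were lower, beside 5.82% and 5.43% of genes. Those lower were Itgam (49.5 and 96.4 CPM), Cd93 (2.81 and 20.8 CPM) and C4b (3 and 58 UMIs, ratio 0.0687, 0.0138 to 0.211). In cDC2-like cells 1 of 6 was higher, beside 7.24% of genes: Cd46, an inhibitor of C3b and C4b, at 50 and 12 UMIs (ratio 1.86, 0.979 to 3.85). In T-like cells 6 of 11 were lower, beside 6.11% of 12763 genes. Cd55, a surface inhibitor of the C3 convertases, was at 6.47 and 13.8 CPM (ratio 0.468, 0.415 to 0.527), with free RNA 1.78% of the WT level, and Cr2, a C3d receptor, at 0.551 and 0.930 CPM. For C2, C4b, Itgam and Cd93 free RNA made up 44.8% to 87.9% of the WT level there. In mature dendritic-like cells 2 of 4 were higher, beside 7.62% of genes: Itgb2 and Itgam, with ratios of 1.72 and 1.58 and free RNA at 30.9% and 41.0% of the level. In melanoma-like cells 1 of 13 was higher and 5 were lower, beside 5.67% and 8.56% of genes. There C2 stood at 88.7 and 134 CPM (ratio 0.664) and Cd46 at 15.9 and 8.87 CPM (ratio 1.79).

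Across 10 classes in both libraries (20 points), other genes were ranked by the Pearson correlation of log2(CPM + 1) with each member over 14771 genes. The points share libraries and free RNA, and the values are a description. Among the genes most like the C1q sum were Ms4a7 (r = 0.954), Prune2 (0.935), Trem2 (0.933) and Stab1 (0.928), of which Ms4a7 and Trem2 were macrophage gate markers. C3 was most like Gda (0.976), Ifi204 (0.967) and Ccl6 (0.966). Among the genes most like Cfb were Msr1 (0.969) and Tlr8 (0.956), and Cfp was most like Cysltr1 (0.955), Tbxas1 (0.945) and Lmo2 (0.940). C3ar1 was most like Siglec1 (0.973), Ccl2 (0.970) and Arg1 (0.958), and C5ar1 was most like Rab20 (0.984), Acod1 (0.972) and Clec4d (0.969).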

How the data were processed

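The deposited matrices hold UMI counts, written by Cell Ranger 7.2.0 per the file headers. The build, mm10, comes from the submitters' processing notes. The annotation behind the counts is not given in the sources. The files hold all barcodes, unfiltered, with 202946827 (knockout) and 235652476 (WT) UMIs and 32285 genes. Cells were called by a UMI threshold (9263 and 16615) and, below it, down to 500 UMIs, a Monte Carlo test against the free RNA profile (10000 simulations, false discovery rate 0.01). At least 250 genes and at most 10% mitochondrial UMIs were required. Scrublet (scanpy 1.11.5) marked 339 (3.01%) and 152 (1.65%) doublets, which were removed, fewer than the 9.02% and 7.35% that the loading would give. The libraries shared 25 cell barcodes.

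Each cell was scored on 14 marker lists (mean scaled log counts per 10000) and gated at a score of 0.25, a margin of 0.05 and 3 detected markers. A class name is "like" for that reason. CPM is a gene's UMIs in a class of 1 library over all UMIs of that class. Intervals are exact Poisson (levels), exact binomial (shares) and exact conditional (ratios). The ratio intervals were run on simulated Poisson counts, the model they assume. That run left out the spread between cells, so it does not check the intervals for these data. Ratios required 100 cells per library, and a list count required 50 UMIs in either library and 1.5-fold. Genes named for their fold also had to have an interval that excluded 1 in a class, and that of Cd46 in cDC2-like cells included 1. The free RNA profile came from 1811182 and 2190111 barcodes with at most 100 UMIs. Its share per class was set by melanoma genes, counting every melanoma transcript in a class as free RNA. This estimate exceeded the measured C1q level in several classes of both libraries, so it was too high there. Among them were T-like, NK-like, neutrophil-like, non-classical monocyte-like and plasmacytoid dendritic-like cells.

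All 8 members are named. Other complement genes are named when past 1.5-fold or highest in their role. A few genes that these rules name are not reported here. The members and lists were chosen with earlier results of these data known. With 1 library per group there was no test between conditions. Figures and numbers used Python 3.11.15, numpy 2.4.6, scipy 1.17.1 and leidenalg 0.10.2 (clusters as an alternative to gates). Gene positions came from GENCODE M21 and promoters from RefSeq. The exchange of class shares between libraries was added after seeing the data, and a longer interferon motif with no match in the members' promoters was replaced by its shorter core.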

Additional observations from a re-analysis of the deposited data

Results flagged for a closer look

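C5ar1, Cfb and Cfp had ratios on opposite sides of 1 in different classes under the same comparison of the libraries. The log2 ratio of C5ar1 was -1.55 in non-classical monocyte-like cells and 0.069 in macrophage-like cells. That of Cfb was -0.70 in cDC1-like cells and 0.17 in monocyte-like cells. That of Cfp was -0.11 in macrophage-like cells and 1.29 in mature dendritic-like cells. For C5ar1 and Cfb the opposition was lost under some settings: C5ar1 in macrophage-like cells went to -0.0033 with the Arg1 parts weighted alike, Cfb in cDC1-like cells to 0.20 with each cell weighted alike, and Cfb in monocyte-like cells to -0.049 above the UMI threshold. The difference between classes was not tested for any of these genes, since each condition had 1 library.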

How the results depend on the processing

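No paired analysis was possible because each group had 1 library. Over 42 ratios and 13 alternative settings, 446 values were recomputed, of which 299 stayed within the counting interval and 23 moved by over 1.5-fold. The C1q sum in macrophage-like cells (log2 ratio -0.47) was -0.51 above the UMI threshold, -0.53 at most 5% mitochondrial, -0.48 with doublets kept, -0.39 under a stricter gate, -0.68 with clusters, -0.56 with cells weighted alike, -0.46 with free RNA subtracted, -0.47 with a constant amount subtracted, -0.49 without 10 cells, -0.39 split by Arg1 and -0.34 with score bins weighted alike. Over all CD45+ cells (-1.53) it was -1.61, -1.68 and -1.55 in the first 3 of these, -1.52 with cells weighted alike, -1.53 with free RNA subtracted, -1.55 without 10 cells and -0.56 with classes weighted alike. C3 in macrophage-like cells (0.52) was 0.71 above the threshold, 0.45 at 5% mitochondrial, 0.44 with clusters, 0.26 with cells weighted alike and 0.41 with score bins. C3ar1 there (0.00) was 0.061 above the threshold, 0.035 at 5% mitochondrial, -0.079 split by Arg1 and -0.034 with score bins. Cfb there (0.03) was -0.049 at 5% mitochondrial, 0.077 under a stricter gate, -0.095 with clusters and -0.023 with cells weighted alike. Cfp in monocyte-like cells (0.08) was -0.21 above the threshold and 0.19 under a stricter gate. Among ratios whose interval excluded 1, the sign turned 4 times: for Cfb in monocyte-like cells above the threshold (-0.049), C5ar1 in macrophage-like cells split by Arg1 (-0.0033), Cfb in cDC1-like cells weighted alike (0.20) and C3ar1 in cDC2-like cells without 10 cells (0.074). Among ratios whose interval included 1 it turned 22 times, among them C3 in cDC2-like cells, from -0.22 to 0.67 with clusters and to 0.37 without 10 cells. The cause was not tested. The constant free RNA amount and the score bins were chosen after seeing the data. Depth limited the members compared in each class to those with at least 50 UMIs.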

Other observations

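Cells of other lineages carried complement genes that the comparison could not reach for lack of cells. The 3 knockout and 15 WT fibroblast-like cells that had passed the sort held C3 at 437 (325 to 575) and 191 (154 to 234) CPM and Cfb at 146 (84.9 to 233) and 288 (242 to 340) CPM, with free RNA under 3% of each level. The C3 UMIs came from 2 and 6 cells and the Cfb UMIs from 2 and 8, so these intervals do not compare the libraries. The fibroblast-like cells also held Serping1, the C1 inhibitor, at 429 and 447 CPM (50 and 216 UMIs) and the C1 protease C1s1 at 154 and 122 CPM (18 and 59 UMIs). The 66 and 151 B-like cells held Cr2, a C3d receptor that B cells carry, at 127 and 390 CPM (56 and 416 UMIs) and Cd55 at 314 and 343 CPM (138 and 366 UMIs). Terminal pathway genes gave few UMIs. C8g had the most over all CD45+ cells, 86 and 90 UMIs, of which 53 and 44 lay in T-like cells, and Hc (C5) had 24 and 31. C8a gave 17 and 1 UMIs in 130 and 45 plasmacytoid dendritic-like cells.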
